A study of Mus musculus with 6 samples.

Results

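This account follows 9 genes of the myofibroblast and TGF-beta response, Acta2, Tagln, Postn, Tnc, Thbs1, Lox, Loxl2, Tgfb1 and Inhba, in mouse skin exposed to a bacterial protease and mite extract. They were chosen by name from a deposited table of 17564 genes, each had 1 row, and all 9 passed the filter on low reads that left 15534 genes for testing. Whole back skin of wild-type C57BL/6 mice, 8 weeks old, was profiled by bulk RNA sequencing. In the treated group (3 samples, T1 to T3 below), skin without hair received 3 µg of SspA, the V8 protease of Staphylococcus aureus, together with 10 µg of house dust mite extract (HDM). The application was repeated 3 days later, and skin was taken on day 7. The untreated group (3 samples, U1 to U3) was also shaved and depilated, so hair removal is common to both groups. The labels give no collection day for it, and they do not state whether each sample was a mouse of its own, so p-values reflect only how far these samples differ from each other, and that variation may be technical.

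TGF-beta is secreted in a latent form, is released by integrins or thrombospondin, and signals through paired receptors to Smad2 and Smad3. Activin A, a dimer of the Inhba product, uses related receptors and the same Smads. In healing skin these signals drive fibroblasts to become myofibroblasts, cells that contract through stress fibres of alpha smooth muscle actin and that deposit and cross-link matrix. In resting skin the contractile genes Acta2 and Tagln are also expressed by vascular smooth muscle, pericytes, the arrector pili muscle and the dermal sheath of hair follicles.

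Values are reads per gene divided by 1 factor per library, called scaled reads here, and all 6 libraries sum to nearly the same total. The reads behind them ranged from 4928245 in U2 to 7545567 in T3. No gene exceeded 0.923 reads per base of transcript, and genes over 0.2 reads per base, 3003 of those tested, were lower in the deepest library T3 than in T1 and T2 by a median log2 difference of -0.15. Acta2, Tagln and Postn were in that class, where the median log2 fold change of treated over untreated skin was -0.07. The other members had 0.02 to 0.2 reads per base, where the median was 0.06. Up to 0.02 reads per base it was 0.19. The markers of skin mesenchyme were present: all 10 dermal fibroblast markers (summed level 15977 to 20177 scaled reads in treated and 15048 to 17618 in untreated skin) and all 10 markers of mural cells and smooth muscle (6801 to 7915 and 7907 to 8221) had reads in both groups. In bulk skin, fewer cells of a type and less RNA per cell cannot be told apart.

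The ligand genes Tgfb1 and Inhba and the cross-linking gene Lox rose in treated skin by between 1.36-fold and 2.05-fold. The cross-linking gene Loxl2, the contractile genes Acta2 and Tagln and the matricellular genes Tnc, Postn and Thbs1 were not called. So 3 of 9 members were called higher and none lower (limma on log2(scaled reads + 1), adjusted p under 0.05 over all genes). Of all 15534 genes, 9.26% were called higher and 7.23% lower, or 16.5% in either direction. At an unadjusted p under 0.05, 5 members were higher and 1 was lower, as were 18.2% and 13.2% of all genes tested. The edgeR quasi-likelihood test also called 3 members higher and 0 lower, where it called 8.04% of genes higher and 7.75% lower. Treated and untreated values were fully separated for 5 members. These were Lox, Loxl2, Tgfb1 and Inhba, higher in treated skin as were 21.7% of tested genes, and Acta2, lower as were 15.6%, or 37.3% in either direction. The median log2 fold change of the members was 0.39, against 0.03 for all genes tested. In the authors' deposited table the same 3 genes had an adjusted p under 0.05, with 2.95e-06 for Lox, 9.21e-06 for Inhba and 0.0371 for Tgfb1. That table called 7.26% of all its genes higher and 7.56% lower.

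**Figure D1:**
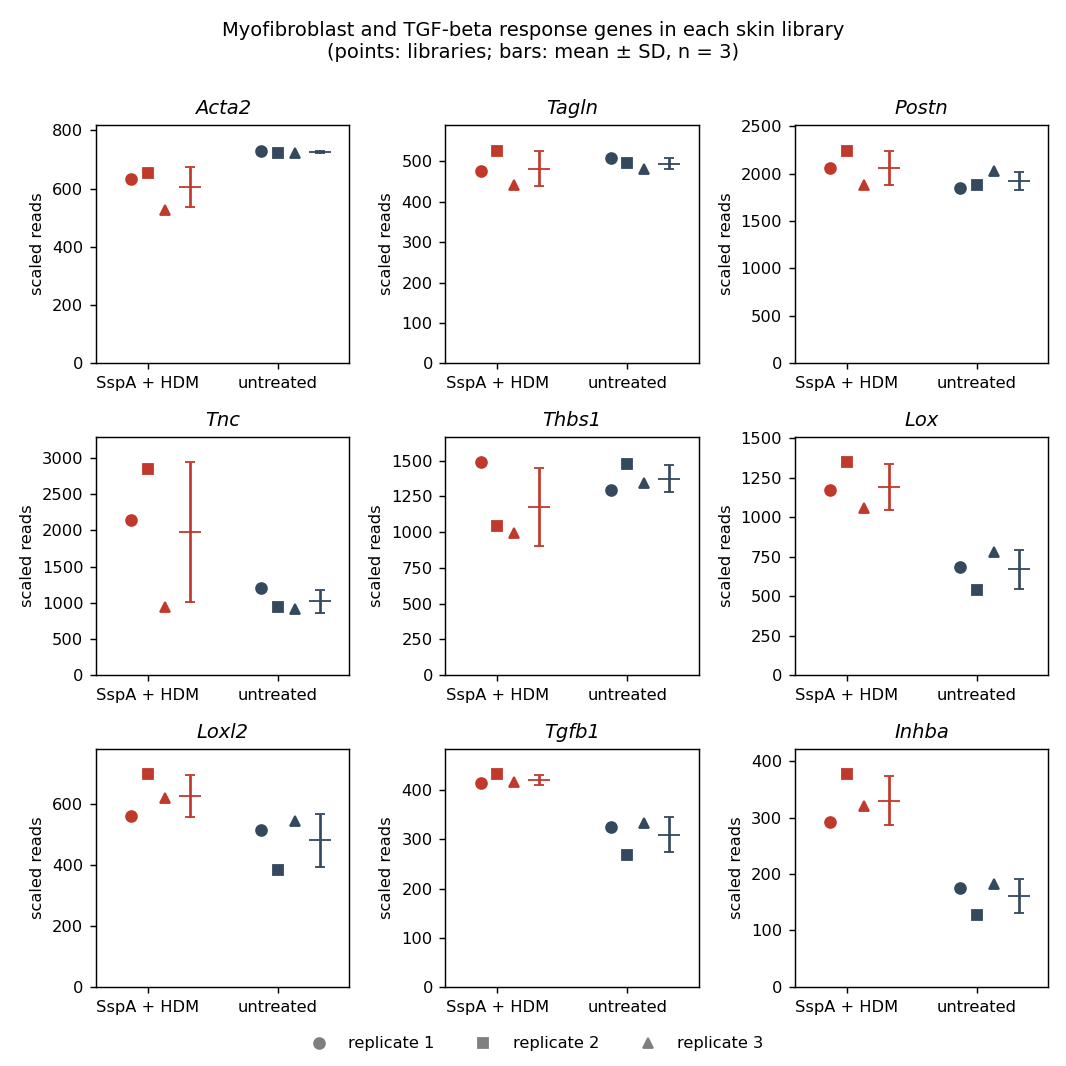
Scaled reads of each of the 9 genes (vertical axis, from 0) in the treated (red) and untreated (dark) libraries, with marker shape for the replicate number and bars for mean ± SD (n = 3). Lox, Loxl2, Tgfb1 and Inhba are higher in every treated library than in any untreated one, Acta2 is lower in every treated library, and Tnc in T3, at 939 scaled reads, lies among the untreated values.

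The ligand members Inhba and Tgfb1 were both called higher. Inhba (chromosome 13, 16011851 to 16031609, plus strand, mm10), which encodes the activin beta A chain, had 292, 377 and 321 scaled reads in T1, T2 and T3, against 176, 127 and 182 in U1, U2 and U3. Every treated library lay above every untreated one. The means were 330 ± 43.2 in treated and 162 ± 29.8 scaled reads in untreated skin (SD, n = 3 each), a log2 fold change of 1.03 ± 0.16 SE (adjusted p = 0.00584 by limma), and 93.7% of tested genes changed less in size. Inhba overlaps B230303A05Rik on the opposite strand, a row with 22.6 scaled reads in T1, 3.27 in T2 and none in the other libraries. Tgfb1 (chromosome 7, 25687002 to 25705077, plus strand), the main TGF-beta ligand of inflamed tissue, had 414, 432 and 416 scaled reads in T1, T2 and T3, against 325, 269 and 334 in U1, U2 and U3. The treated libraries were close to each other and all above the untreated ones. The log2 fold change of Tgfb1 was 0.45 ± 0.10 SE (adjusted p = 0.0226 by limma), smaller than that of Inhba, a difference that was not tested. The call of Tgfb1 was lost without T1 (adjusted p = 0.0549 by limma), T2 (0.0848), U1 (0.0545) or U2 (0.0519), and its adjusted p ranged from 0.0197 to 0.0848 over 20 alternatives. Inhba was called in all 20 of them.

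RefSeq promoters (GRCm38.p6, 250 bases before to 50 after the start) were at hand for 5 of the 9 genes. The pair below is shown because Inhba had the largest called rise among the members and Acta2, the gene that names the myofibroblast, had none. Capitals mark letters found by searching, on both strands, for CAGAC (a Smad-type motif), TGANTCA (AP-1), CATTCC (the MCAT motif of muscle genes), TATAAA, and the CArG box of serum response factor with at most 1 C or G in its core of A and T.
Inhba, chr13:16011601-16011900, plus strand: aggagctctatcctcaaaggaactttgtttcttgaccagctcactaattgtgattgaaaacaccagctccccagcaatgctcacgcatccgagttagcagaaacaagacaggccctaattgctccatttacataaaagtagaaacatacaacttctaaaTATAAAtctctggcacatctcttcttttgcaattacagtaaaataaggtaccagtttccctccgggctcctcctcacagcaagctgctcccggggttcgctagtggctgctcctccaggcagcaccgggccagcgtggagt
Acta2, chr19:34255324-34255623, minus strand: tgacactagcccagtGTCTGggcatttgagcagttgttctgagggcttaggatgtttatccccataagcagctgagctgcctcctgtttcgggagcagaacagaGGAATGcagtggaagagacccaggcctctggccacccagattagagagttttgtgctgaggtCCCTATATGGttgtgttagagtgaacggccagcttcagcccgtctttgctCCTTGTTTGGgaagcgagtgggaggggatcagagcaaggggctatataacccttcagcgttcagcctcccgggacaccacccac

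The Acta2 window held 2 relaxed CArG boxes, which start 84 and 34 bases before the transcript start, besides 1 CATTCC and 1 CAGAC match in reverse orientation. A relaxed CArG box occurs in 9.98% of the 32851 promoters in the table, and none of the other 4 members with a window at the deposited start held one. The Inhba window held TATAAA (13.6% of promoters) and no other motif searched. CAGAC, in 49.6% of promoters, was in the windows of Acta2, Postn and Tnc and not in those of Tgfb1 and Inhba. These matches describe letters, not sites in use.

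Around the ligands, genes of the list for ligands, latency and activation moved in both directions. Of 15 tested genes, 4 rose, the member Tgfb1 among them, 2 fell and 9 were not called, with a median log2 fold change of 0.03. Over all genes tested, 9.26% were called higher and 7.23% lower. At an unadjusted p under 0.05, 5 of the list were higher and 3 lower, against 18.2% and 13.2% of all genes. By edgeR 4 were called higher and 2 lower. Lrrc32, which anchors latent TGF-beta on the surface of regulatory T cells and platelets, had 595, 669 and 640 scaled reads in T1, T2 and T3, against 435, 362 and 393 in U1, U2 and U3 (log2 fold change 0.68, adjusted p = 0.0042 by limma). Tgfb3, a further ligand, had 498, 559 and 494 scaled reads in treated and 342, 340 and 367 in untreated libraries (0.56, adjusted p = 0.0058 by limma). The groups did not overlap for either gene. Nrros, the myeloid counterpart of Lrrc32, also rose (log2 fold change 0.55, adjusted p = 0.0318 by limma). In the matrix protein family named latent TGF-beta binding proteins, Ltbp2 fell to 245 ± 65.2 scaled reads in treated skin, against 437 ± 79.4 in untreated skin (log2 fold change -0.85, adjusted p = 0.0195 by limma). Ltbp4 of that family fell as well (-0.38, adjusted p = 0.0221 by limma). Binding of latent TGF-beta by either protein was not tested. Tgfb2, at 228 ± 27.2 scaled reads in treated and 282 ± 18.7 in untreated skin, was not called (adjusted p = 0.115 by limma, and 0.0477 without T3). Nrros was not called without T1, T2, U1 or U2 (adjusted p 0.0743 to 0.115 by limma), Ltbp2 without T1 (0.0646) or U3 (0.0542), and Ltbp4 without U1 (0.0615), U2 (0.0622) or U3 (0.0561). The list had 2 higher genes without T1, T2, U1 or U2, 1 lower gene without U1 or U2, and 0 lower without U3.

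Among receptor and Smad genes, Smad7 alone was called. Of 15 tested members, 1 rose, none fell and 14 were not called (limma), and the median log2 fold change was -0.05. Of all genes tested, 9.26% were called higher and 7.23% lower. At an unadjusted p under 0.05, 4 of the list were higher and 0 lower, against 18.2% and 13.2% of all genes. By edgeR none was called in either direction. Treated and untreated values were fully separated for 4 higher and 3 lower genes of the list, against 21.7% and 15.6% of all genes. The receptor gene Tgfbr1 had 871 ± 65.4 scaled reads in treated and 723 ± 31.7 in untreated skin (adjusted p = 0.0557 by limma, and 0.0432 without T1). Tgfbr2 had 1422 ± 184 and 1586 ± 132 (adjusted p = 0.33). Smad7, the inhibitory Smad that TGF-beta induces, was the called gene, at 215, 204 and 224 scaled reads in T1, T2 and T3, against 149, 156 and 175 in U1, U2 and U3 (log2 fold change 0.42, adjusted p = 0.045 by limma). The groups did not overlap, but the adjusted p of Smad7 was 0.0529 to 0.146 whichever library was left out, and the list had 0 higher genes without T2, T3, U1, U2 or U3 and 2 lower without T3. Among activin ligands and antagonists, 2 of 9 tested genes rose, Inhba and Inha, and none fell (none at an unadjusted p under 0.05 either, and 0 by edgeR). Inha, the inhibin alpha chain, had 131 ± 3.31 scaled reads in treated and 88.0 ± 8.67 in untreated skin (0.57, adjusted p = 0.0328 by limma), a call lost without T1, T2, T3, U1 or U2 (adjusted p 0.0503 to 0.112). Follistatin (Fst), which binds and blocks activin, had 469 ± 32.3 scaled reads in treated and 476 ± 42.3 in untreated skin (adjusted p = 0.927 by limma).

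Genes that TGF-beta is known to induce held the largest rises near the members. Of 22 tested induced and feedback genes, 6 rose, 1 fell and 15 were not called, with a median log2 fold change of 0.22. Of all genes tested, 9.26% were called higher and 7.23% lower. At an unadjusted p under 0.05, 9 of the list were higher and 2 lower, against 18.2% and 13.2% of all genes. The difference from the receptor list was not tested. Skil, a corepressor that holds Smads in check, had 1069, 1024 and 1170 scaled reads in T1, T2 and T3, against 637, 623 and 709 in U1, U2 and U3 (log2 fold change 0.73 ± 0.08 SE, adjusted p = 0.0019 by limma). Adam12, a membrane metalloprotease of activated fibroblasts, had 381, 681 and 586 scaled reads in treated and 153, 65.6 and 152 in untreated libraries (2.2 ± 0.33 SE, adjusted p = 0.00512 by limma). The groups did not overlap for either gene, and both were called in all 20 alternatives. Other called rises included Pmepa1, Smad7 and Cthrc1, the last of which was not called without T2 (adjusted p = 0.0576 by limma). Ltbp2 was the gene that fell, a call lost without T1 (adjusted p = 0.0646 by limma) or U3 (0.0542). The list was not uniform: Ccn2, the connective tissue growth factor, had 480 ± 13.0 scaled reads in treated and 512 ± 46.6 in untreated skin (adjusted p = 0.55 by limma), and Tgfbi had 1397 ± 199 and 1404 ± 59.0 (adjusted p = 0.937). Markers of immune and endothelial cells were also higher in treated skin. Of 10 macrophage and monocyte markers 4 were called higher (summed level 5300 to 7096 scaled reads in treated and 3717 to 4871 in untreated skin), and all 9 tested neutrophil markers were (1535 to 4704 and 481 to 708), with Ly6g at 0 in untreated skin. Of 8 endothelial markers 3 were called higher (Vwf, Tie1 and Emcn, with a summed level of 5334 to 6347 scaled reads in treated and 4058 to 4734 in untreated skin), and none was at 0. By edgeR 2 of them were called higher. The call of Emcn was lost without T1, T2, T3, U1 or U3 (adjusted p 0.0648 to 0.144 by limma). That of the macrophage marker Fcgr1 was lost without T1, T2, U1 or U2 (0.0517 to 0.114). The part of these cells in the rises of the induced genes, and in those of Tgfb1, Inhba, Tgfb3, Lrrc32, Nrros and Lox, was not tested.

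Lox and Loxl2 encode secreted amine oxidases that cross-link collagen and elastin. Lox (chromosome 18, 52516060 to 52529823, minus strand) had 1170, 1346 and 1054 scaled reads in T1, T2 and T3, against 685, 539 and 782 in U1, U2 and U3. The lowest treated library was above the highest untreated one. The mean was 1190 ± 147 scaled reads in treated and 668 ± 122 in untreated skin (SD, n = 3 each), a log2 fold change of 0.84 ± 0.14 SE (adjusted p = 0.00716 by limma), called in all 20 alternatives. Loxl2 (chromosome 14, 69609476 to 69695834, plus strand) had 562, 699 and 620 scaled reads in T1, T2 and T3, against 515, 383 and 545 in U1, U2 and U3. Its groups did not overlap but came close, with T1 just above U3. The log2 fold change of Loxl2 was 0.39 ± 0.14 SE with a 95% interval of 0.07 to 0.71, and it was not called (adjusted p = 0.0906 by limma; 0.0678 to 0.267 over 20 alternatives). The difference between Lox and Loxl2 was not tested.

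The shallowest library, U2, held the lowest untreated value of Lox, Loxl2, Tgfb1 and Inhba, as it did for 40.5% of all genes tested. Without U2 the log2 fold changes were 0.69 for Lox, 0.24 for Loxl2, 0.35 for Tgfb1 and 0.87 for Inhba. Of 17 tested genes for lysyl oxidases and collagen cross-linking, 14 had a positive log2 fold change, and the median was 0.11, against 0.03 for all genes tested. At an unadjusted p under 0.05, 6 of the list were higher and 0 lower, against 18.2% and 13.2% of all genes. By edgeR 2 were higher and 0 lower. By limma 3 rose and none fell, against 9.26% and 7.23% of all genes. Besides Lox these were Bmp1, a protease that cleaves procollagen and the Lox proenzyme, at 1228, 1432 and 1167 scaled reads in treated and 949, 847 and 938 in untreated libraries (0.48, adjusted p = 0.0117 by limma), and Loxl3 (0.44, adjusted p = 0.0421 by limma). Loxl3 was not called without T1 (adjusted p = 0.105 by limma), T2 (0.159), U1 (0.12), U2 (0.116) or U3 (0.0582), and the list had 1 lower gene without T3. Loxl1 had 695 ± 67.3 scaled reads in treated and 680 ± 97.2 in untreated skin (adjusted p = 0.862 by limma). The fibrillar collagen genes the enzymes act on were not called: Col1a1 had 3990 ± 434 scaled reads in treated and 3241 ± 624 in untreated skin (adjusted p = 0.173), and Col3a1 had 4020 ± 492 and 3524 ± 226 (adjusted p = 0.258). None of the 10 dermal fibroblast markers was called in either direction by limma, 0 were higher and 3 lower at an unadjusted p under 0.05, and edgeR called 2 lower.

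**Figure D2:**
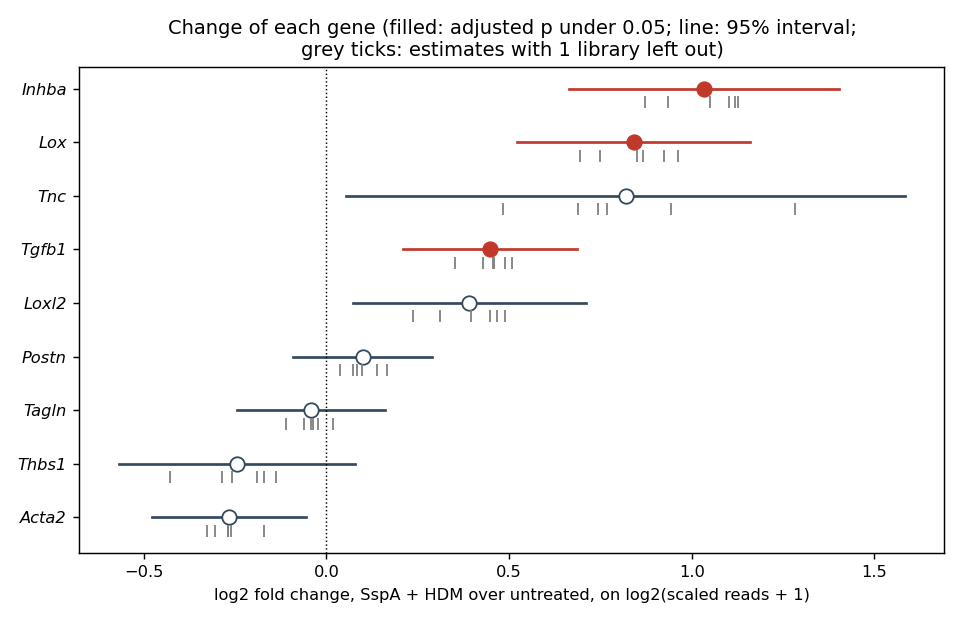
Log2 fold change of each member, treated over untreated (horizontal axis, on log2(scaled reads + 1)), with its 95% interval as a line, a filled red point where adjusted p was under 0.05, and grey ticks for the estimates with 1 library left out. Inhba (1.03), Lox (0.84) and Tgfb1 (0.45) are the filled points, and the ticks of Tnc spread from 0.48 to 1.28.

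None of the matricellular members was called, and differences between them were not tested. Tnc (chromosome 4, 63959789 to 64046936, minus strand), which encodes tenascin-C, a large glycoprotein laid down in wounds and around growing epithelium, had 2141, 2847 and 939 scaled reads in T1, T2 and T3, against 1207, 946 and 912 in U1, U2 and U3. T1 and T2 lay far above every untreated library, while T3 lay inside the untreated range. The mean was 1975 ± 965 scaled reads in treated and 1021 ± 161 in untreated skin (SD, n = 3 each), and the log2 fold change of 0.82 ± 0.34 SE did not pass (adjusted p = 0.134 by limma). Without T3 it was 1.28 (adjusted p = 0.00128 by limma). In the 4 libraries of like depth, without T3 and U2, it was 1.23 (adjusted p = 0.00167), and over 20 alternatives the adjusted p ranged from 0.00128 to 0.363. The log2 level of Tnc in T3 minus the mean of T1 and T2 was -1.39. The summed neutrophil markers were also lowest in T3 among treated libraries, at 4704, 3693 and 1535 scaled reads in T1, T2 and T3. The summed markers of hair follicle sheath and shaft ran otherwise, at 2101, 789 and 4716 scaled reads in T1, T2 and T3, against 140 to 199 in untreated skin, where Krt72 was at 0. All 8 hair markers tested were called higher, against 9.26% of all genes tested. The part of these cells in the spread of Tnc was not tested.

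Postn (chromosome 3, 54359267 to 54391041, plus strand) encodes periostin, a matrix protein induced by TGF-beta and by interleukin-13. It had 2064, 2243 and 1876 scaled reads in T1, T2 and T3, against 1852, 1881 and 2028 in U1, U2 and U3. The groups overlapped, with T3 below U2 and U3. Its log2 fold change was 0.10 ± 0.08 SE with a 95% interval of -0.09 to 0.29 (adjusted p = 0.462 by limma). A rise beyond 1.22-fold lies outside that interval, which holds for this fit alone. With reads estimated from filled positions the log2 fold change of Postn was 0.25 ± 0.10 SE (adjusted p = 0.113 by limma). After removal of each library's trend with reads per base it was 0.27 ± 0.09 SE (adjusted p = 0.0783 by limma). Thbs1 (chromosome 2, 118111876 to 118127133, plus strand) encodes thrombospondin-1, an activator of latent TGF-beta that platelets also release. It had 1488, 1042 and 996 scaled reads in T1, T2 and T3, against 1296, 1478 and 1344 in U1, U2 and U3. T1 was the highest of the 6 libraries, and T2 and T3 were the lowest. The log2 fold change was -0.25 ± 0.14 SE (adjusted p = 0.277 by limma). Without T1 it was -0.43 (adjusted p = 0.0281 by limma), and the adjusted p ranged from 0.0281 to 0.749 over 20 alternatives. Of 8 platelet markers 4 had a row, with a summed level of 332 to 416 scaled reads in treated and 391 to 398 in untreated skin.

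Of 19 tested matricellular genes 2 rose and none fell by limma, against 9.26% and 7.23% of all genes tested. At an unadjusted p under 0.05, 4 of the list were higher and 1 lower, against 18.2% and 13.2% of all genes. By edgeR 2 were higher and 0 lower, and the median log2 fold change was -0.03. Ccn4, a secreted protein of the CCN family, had 180, 234 and 269 scaled reads in T1, T2 and T3, against 58.2, 39.9 and 77.3 in U1, U2 and U3 (1.97 ± 0.25 SE, adjusted p = 0.00317 by limma), and was called in all 20 alternatives. Fbln5, which helps to assemble elastic fibres, also rose (0.49, adjusted p = 0.0289 by limma), a call lost without T2 (0.106), U1 (0.0642) or U2 (0.074). The list had 4 higher genes without T3, 1 higher without T2, U1 or U2, and 1 lower without T1 or T3. Spp1, or osteopontin, was also uneven in treated skin, at 636, 292 and 152 scaled reads in T1, T2 and T3, against 158, 170 and 107 in U1, U2 and U3 (adjusted p = 0.121 by limma, and 0.0109 without T3). Thbs2 had 1538 ± 193 scaled reads in treated and 1514 ± 130 in untreated skin (adjusted p = 0.927).

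The contractile members did not rise. Acta2 (chromosome 19, 34240336 to 34255373, minus strand) encodes alpha smooth muscle actin, the defining protein of myofibroblasts. It had 634, 655 and 528 scaled reads in T1, T2 and T3, against 731, 723 and 723 in U1, U2 and U3. Every treated library was below every untreated one, and the untreated libraries were nearly equal. Their values rest on 665, 562 and 636 reads in U1, U2 and U3, so a spread this small understates counting error. The mean was 606 ± 68.2 scaled reads in treated and 725 ± 4.57 in untreated skin (SD, n = 3 each), so treated skin held 83.5% of the untreated mean. The log2 fold change of -0.27 ± 0.09 SE had a 95% interval of -0.48 to -0.06, which is not adjusted for the number of genes, and the gene was not called (adjusted p = 0.084 by limma; 0.0657 to 0.197 over 20 alternatives). Without T3 the log2 fold change was -0.17. Tagln (chromosome 9, 45929628 to 45936058, minus strand) encodes transgelin, an actin-binding protein of smooth muscle. It had 476, 527 and 441 scaled reads in T1, T2 and T3, against 508, 495 and 481 in U1, U2 and U3. T2 was the highest and T3 the lowest of the 6 libraries. Its log2 fold change was -0.04 ± 0.09 SE with a 95% interval of -0.24 to 0.16 (adjusted p = 0.793 by limma). Without T3 the sign of this small value was positive (0.02). Acta2 shares coding sequence with the other actin genes, Acta1 and Actg2 among them, and Tagln overlaps Pcsk7 on the opposite strand, so their reads are uncertain where the counting could not separate these genes. Pcsk7 had 619 ± 13.5 scaled reads in treated and 532 ± 29.9 in untreated skin.

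The wider contractile programme lay on the low side. Of 25 tested smooth muscle and myofibroblast contractile genes none rose (2 at an unadjusted p under 0.05, 0 by edgeR) and 6 fell, against 7.23% of all genes called lower, and 20 had a negative log2 fold change (median -0.17). Synpo2, an actin-bundling protein of muscle, had 795, 772 and 792 scaled reads in T1, T2 and T3, against 1321, 1232 and 1174 in U1, U2 and U3 (-0.66 ± 0.07 SE, adjusted p = 0.00156 by limma), and was called in all 20 alternatives. Lmod1, the leiomodin of smooth muscle, fell to 214 ± 35.2 scaled reads in treated skin, against 431 ± 143 in untreated skin (-0.97, adjusted p = 0.0184 by limma), a call lost without T1 (0.0591) or T2 (0.0652). Actg2, the gamma actin of visceral smooth muscle, fell to 125 ± 7.65, against 203 ± 40.4 (-0.67, adjusted p = 0.0266 by limma), a call lost without T1 (0.0567), T2 (0.0904), U1 (0.0981) or U3 (0.0661). The other called genes were Myl9 and Myh11, whose calls were lost whichever library was left out (adjusted p 0.0535 to 0.151 by limma), and Tpm2, whose call was lost without T1, T2, T3, U1 or U2 (0.0583 to 0.103). With 1 library left out, 1 gene of the list was lower without T1 or T2, 2 without U1, and 3 without T3, U2 or U3, and 1 was higher without T1 or T3.

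Markers of other contractile and deep tissues were measured beside this list, where 7.23% of all genes tested were called lower by limma. Of 10 mural cell and smooth muscle markers 3 were called lower and 7 were not called, with 3 positive log2 fold changes and summed levels that overlapped between the groups (6801 to 7915 scaled reads in treated and 7907 to 8221 in untreated skin). Among the called genes, Lmod1 and Myh11 are also in the contractile list, and the third was Abcc9, not called without T1, T2, U1 or U2 (adjusted p 0.0576 to 0.0873 by limma). The pericyte gene Rgs5 had 1405 ± 110 scaled reads in treated and 1199 ± 72.5 in untreated skin (adjusted p = 0.0959 by limma, and 0.0486 without T3). All 10 skeletal muscle markers had a negative log2 fold change and 4 were called lower (summed level 26409 to 30208 scaled reads in treated and 34132 to 42095 in untreated skin). Of 8 adipocyte markers 4 were called lower (4990 to 6003 and 6780 to 8418). None of these 3 lists had a marker at 0 in either group. The part of these tissues in the contractile falls was not tested.

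**Figure D3:**
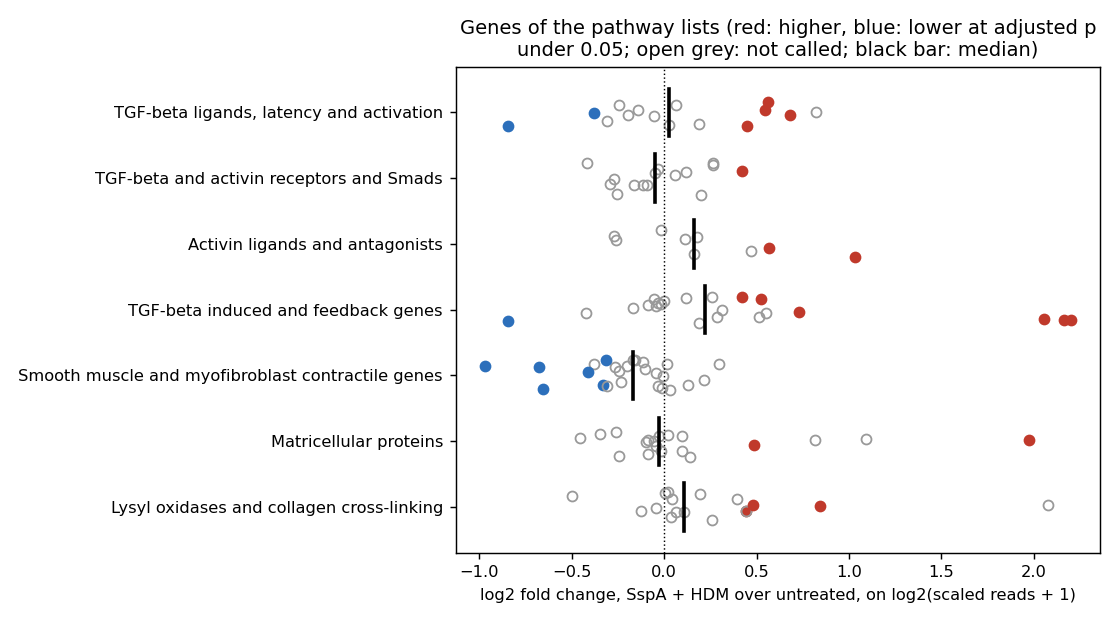
Log2 fold change of every tested gene in the 7 pathway lists, treated over untreated (horizontal axis, on log2(scaled reads + 1)), with called rises in red, called falls in blue, genes not called as open grey circles and the list median as a black bar. The induced and feedback genes hold 6 red points, Adam12 at 2.2 among them, and the contractile genes hold 6 blue points and no red one.

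Per length of transcript, Postn was the most abundant member in both groups, at 610 ± 54.3 scaled reads per kilobase in treated and 568 ± 28.0 in untreated skin. In treated skin the order of mean levels ran on with Tagln (305 ± 27.4 scaled reads per kilobase), Tnc (272 ± 133), Lox (244 ± 30.0), Acta2 (236 ± 26.6), Thbs1 (202 ± 46.7), Tgfb1 (194 ± 4.68), Loxl2 (121 ± 13.3) and Inhba (51.8 ± 6.79). The levels from Tagln to Tgfb1 lay within each other's spread from neighbour to neighbour. In untreated skin the order was Postn, Tagln (313 ± 8.58), Acta2 (283 ± 1.78), Thbs1 (236 ± 16.3), Tgfb1 (143 ± 16.3), Tnc (141 ± 22.2), Lox (137 ± 25), Loxl2 (93.2 ± 16.7) and Inhba (25.4 ± 4.69). There Tgfb1, Tnc and Lox did not differ beyond their spread. Tnc and Lox stood below Acta2 and Thbs1 in untreated skin, and above them by mean in treated skin, where the spread of Tnc covers both.

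**Figure D4:**
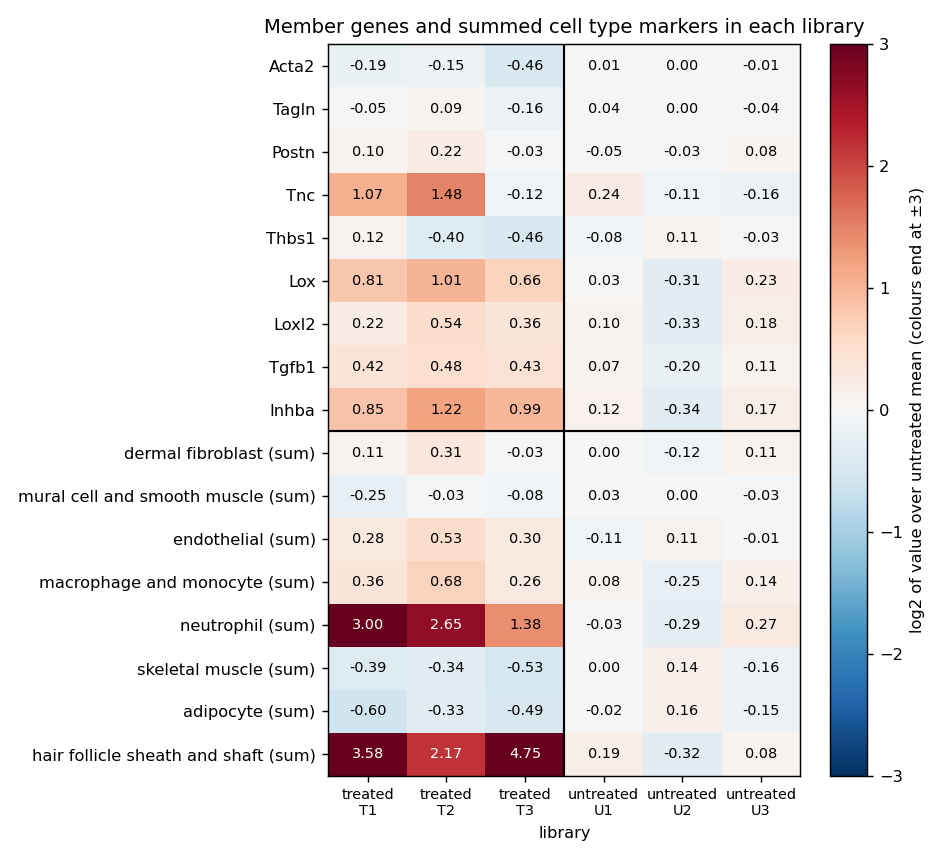
Log2 of each library's value over the untreated mean for the 9 members (upper rows) and for the summed markers of 8 cell types (lower rows), with treated libraries on the left and untreated on the right. Tnc is at 1.07 and 1.48 in T1 and T2 and at -0.12 in T3, while Lox, Tgfb1 and Inhba are above 0.4 in all 3 treated libraries.

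Likeness of pattern was measured as the root mean square difference between log2 profiles over the 6 libraries, each centred on its own mean, among 12950 genes with a mean of at least 50 scaled reads. Tagln and Postn were the closest pair of members (0.09), followed by Loxl2 and Tgfb1 (0.10), Acta2 and Tagln (0.12), and Lox and Inhba (0.13). The genes most like Lox were Chsy1 (0.05), Fkbp10 (0.07) and Gnpda1 (0.07), and those most like Inhba were Tfpi2 (0.07), Plscr1 (0.07) and Adamts7 (0.08). All 6 were called higher by limma. Tgfb1 was nearest to Tnpo1 (0.03), Fnip2 (0.04) and Cad (0.04), and Loxl2 to Washc4 (0.05), Taok3 (0.05) and Dock5 (0.05). Tnc had no close neighbour. The nearest was Timp1 (0.15), an inhibitor of matrix metalloproteases, at 304, 339 and 108 scaled reads in T1, T2 and T3, against 159, 114 and 141 in U1, U2 and U3, followed by Entpd3 (0.21) and Apobr (0.21). Thbs1 was nearest to Taf10 (0.06), Cebpb (0.06) and Glrx5 (0.06). Acta2 was nearest to Ergic1 (0.02), Cav2 (0.04) and Cd74 (0.04), Tagln to Pex10 (0.03), Asah1 (0.03) and Sil1 (0.03), and Postn to Maf (0.03), Nufip1 (0.03) and Colgalt1 (0.03). For genes that differ little between libraries such neighbours are many: 1340 genes lay within 0.1 of Tagln, against 9 for Inhba and none for Tnc.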

How the data were processed

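RNA of whole skin from 3 treated and 3 untreated samples went into a stranded mRNA library kit, per the labels' protocols. The submitters' processing notes list bcl2fastq 2.20.0.422, STAR, DESeq2 and build mm10. The read counter, its strand setting and filters were not stated. The authors deposited 1 table with a scaled signal per gene and library, log2 fold changes, p-values and adjusted p-values, and gene length, per the file headers.

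All values (100.0%, tolerance 0.1) were whole multiples of the value of 1 read, which gave 4928245 to 7545567 reads per library. No replicates were identical.

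Genes passing filterByExpr of edgeR 4.0.16 (minimum count 10, minimum total 15) entered limma 3.58.1 (R 4.3.3) on log2(value + 1), with a variance trend and group alone in the model. Adjustment (Benjamini-Hochberg) covered all 15534 genes. Fold changes on that scale understate the change of low genes. Alternatives were edgeR's quasi-likelihood test with TMM on the recovered reads (1249 genes higher, 1204 lower), DESeq2 1.42.0, limma-voom, TMM scaling, pseudocounts 0.5 and 5, no filter, at least 1 CPM in 3 libraries, adjusted p under 0.01, no variance trend, a replicate block, each library left out, 4 libraries of like depth and the authors' deposited comparison. Reads estimated from filled positions and removal of each library's trend with reads per base were added after seeing the data.

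The members and the 7 pathway and 11 marker lists were chosen with earlier results of these data known. Named were all members, up to 3 called genes per direction and list by smallest p (every called gene where 5 or fewer were called), markers at 0, and the 3 genes most like each member, predicted genes left out. A result the naming rule would cover is not reported here. Pmepa1, Cthrc1, Myl9, Tpm2, Myh11, Tgfb2, Tgfbr1, Tgfbr2, Fst, Ccn2, Tgfbi, Loxl1, Col1a1, Col3a1, Spp1, Thbs2, Rgs5, Abcc9, Vwf, Tie1, Emcn, Fcgr1, Pcsk7 and B230303A05Rik were chosen after their values were seen.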

Additional observations from a re-analysis of the deposited data

How the results depend on the processing

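Under all 21 alternatives Inhba and Lox were called higher and Acta2, Loxl2 and Postn were not called. The cause of the changes below was not tested. Genes called higher numbered 922 with no variance trend and 362 at adjusted p under 0.01, and genes called lower 640 and 288. Tgfb1 (log2 fold change 0.45) was not called in either setting. Tnc was called with the replicate block (0.82, adjusted p = 0.0448 by limma) and in the 4 libraries of like depth (1.23). Tagln was positive in those 4 libraries (0.020) and after removal of the reads-per-base trend (0.036). Deviations of same-numbered samples correlated at -0.09, -0.05 and 0.05, so no shared deviation was seen. With 3 samples per group, these values cannot show whether same-numbered samples were paired.

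With no variance trend, 2 ligand and latency genes were higher and 0 lower, 0 induced genes lower, 2 contractile genes lower and 1 matricellular gene higher. At adjusted p under 0.01, 2 ligand genes were higher and 0 lower, 0 receptor genes higher, 1 activin gene higher, 0 induced genes lower, 1 contractile gene lower, 1 matricellular gene higher and 1 cross-linking gene higher. Receptor genes called higher were 0 under edgeR, DESeq2, limma-voom, the block, 4 libraries, the authors' deposited table, filled positions and trend removal. Activin genes called higher were 1 under DESeq2, the block, 4 libraries, the authors' deposited table and trend removal. In the 4 libraries 1 receptor gene was lower, 1 contractile gene higher, 4 matricellular genes higher and 1 lower, and 1 cross-linking gene lower. The block gave 4 matricellular genes higher, 1 was lower in the authors' deposited table, and trend removal gave 1 contractile gene higher and 2 induced genes lower.

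With 1 library left out, genes higher ran from 597 to 1389 and lower from 518 to 1333. Log2 fold changes ran from -0.33 to -0.17 for Acta2, -0.11 to 0.019 for Tagln, 0.04 to 0.17 for Postn, 0.48 to 1.28 for Tnc, -0.43 to -0.14 for Thbs1, 0.69 to 0.96 for Lox, 0.24 to 0.49 for Loxl2, 0.35 to 0.51 for Tgfb1 and 0.87 to 1.13 for Inhba. Counts higher and lower ran from 2 to 4 and 0 to 3 for ligands, 0 to 1 and 0 to 2 for receptors, 1 to 2 and 0 to 0 for activins, 4 to 6 and 0 to 1 for induced genes, 0 to 1 and 1 to 3 for contractile genes, 1 to 4 and 0 to 1 for matricellular genes, and 2 to 3 and 0 to 1 for cross-linking genes. Reads per library, fewest in U2, limit precision by counting error.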
